A study of Homo sapiens with 9 samples.

Results

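The genes described here are 10 transcripts of the feedback and output of growth factor signalling through the kinase ERK. They are the phosphatases DUSP1, DUSP4, DUSP5, DUSP6 and DUSP10, the Sprouty genes SPRY2 and SPRY4, and the transcription factors ETV1, ETV4 and ETV5. They were selected on their expression values in these 9 libraries, as members of one known pathway, and taken by symbol from a table of 19389 genes, in which each of the 10 had 1 entry. RNA had been sequenced from SW1353, a human chondrosarcoma line that often serves as a chondrocyte model. There were 3 groups, each with 3 libraries. The untreated group received neither agent. The IL-1β group was exposed for 20 h to the inflammatory cytokine interleukin-1β (20 ng/mL). The PBSL group was first kept for 2 h with PBSL, made from Protaetia brevitarsis seulensis (a beetle) larvae, and then had the same cytokine exposure. No group had PBSL without IL-1β, and the labels list several PBSL concentrations without saying which was sequenced. Nor do they say whether the libraries of a group came from separate cultures, so the spread between them may be technical.

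ERK is the last kinase of a cascade that runs from receptor tyrosine kinases through Ras, Raf and MEK. The pathway limits itself: active ERK drives transcription of DUSP phosphatases, which remove phosphate from MAP kinases, and of Sproutys, which block signalling between receptor and Ras. ETV1, ETV4 and ETV5 form the PEA3 group of ETS transcription factors and carry the signal on to further genes. Their transcripts are widely used as a readout of ERK output. DUSP1 and DUSP10 differ from the rest in that they act mainly on the stress kinases p38 and JNK, which IL-1β activates.

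The values are the authors' normalized expression values, not counts. Library sums lay between 523758 and 553196. Absolute depth is unknown. The steps between low values, which mark single reads, put the relative depth of the libraries between 0.92 and 1.13 of that of untreated 1. The smallest values of rarely detected genes were lower in genes with longer exons (Pearson r = -0.62 across 2180 genes, which are not independent), so levels of different genes are compared here as per-length values. The mesenchymal markers VIM, COL1A1, COL1A2 and SPARC were at 407 or more in every library. Of 8 chondrocyte markers, 4 reached 1 in some library. SOX9 stood between 8 and 12.8, whereas COL2A1, the type II collagen gene that defines cartilage, did not exceed 0.027. The summed chondrocyte markers ran from 15.3 to 17.2 in untreated, 11.8 to 13 in IL-1β and 11.1 to 12.6 in PBSL libraries. Of the epithelial markers 2 of 4 reached 1, with KRT19 up to 7.95 in 1 library and EPCAM at most 0.489. Of the leukocyte markers 2 of 4 did so, with PTPRC at most 0.393, and their sum ran from 2.67 to 2.71 in untreated, 1.92 to 2.02 in IL-1β and 1.27 to 1.74 in PBSL libraries. None of the 4 endothelial markers reached 1, and their sum ran from 0.514 to 0.588, 0.726 to 0.934 and 0.836 to 1.12 in the same order of groups. Epithelial sums ran from 2.08 to 11, 4.55 to 5.19 and 4 to 5.25, and mesenchymal sums from 5866 to 6134, 6338 to 6412 and 5088 to 5766. The part of these markers in the results was not tested. In bulk RNA such as this, fewer cells of a type and less RNA per cell cannot be told apart. PBSL 1 stood closest to IL-1β alone: its median absolute log2 difference from the IL-1β mean was 0.092 over all tested genes, against 0.162 in PBSL 2 and 0.168 in PBSL 3.

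The 10 genes spanned a wide range of levels. In untreated cells DUSP1 was the most abundant, with a mean value of 36.1 ± 2.22 (SD, n = 3, as for every mean below), followed by DUSP10 at 23.7 ± 1.26 and SPRY2 at 12.1 ± 0.935. At the low end SPRY4 stood at 1.02 ± 0.115 and ETV4 at 0.665 ± 0.0595. The libraries of SPRY2 and DUSP5 overlapped in untreated cells, as did those of DUSP6 and DUSP4, so their order is not fixed. With IL-1β the order of the first 4 was the same. In the PBSL group DUSP10 came first and DUSP1 second, with no overlap between their libraries. A gene entered the test when it reached 1 in at least 3 libraries. DUSP1, DUSP4, DUSP5, DUSP6, DUSP10, SPRY2, ETV1 and ETV5 did so in all 9, while SPRY4 and ETV4 reached 1 in only 2 libraries each and were not tested.

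**Figure D1:**
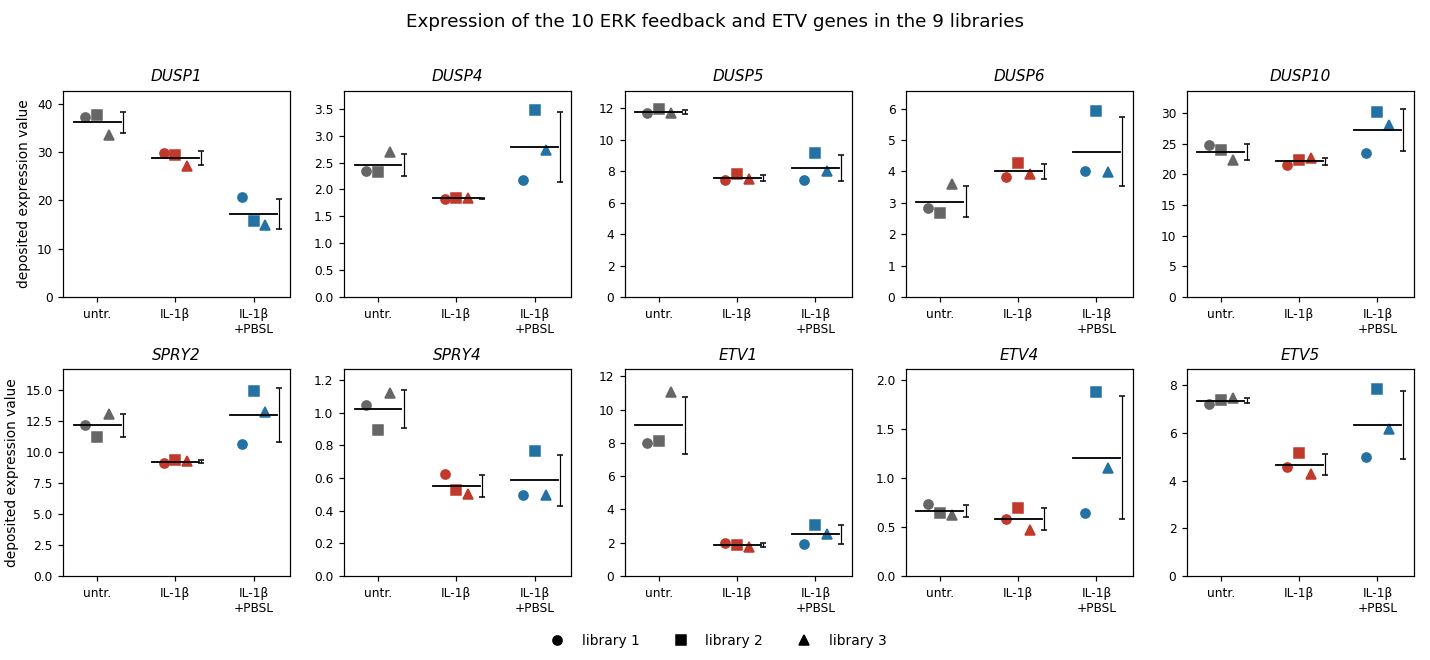
Deposited expression value (vertical axis, linear from 0, a separate scale per gene) of the 10 genes in the 3 groups; each symbol is 1 library, the horizontal line is the group mean and the bar beside it is ± 1 SD. ETV1 drops from a mean of 9.05 to 1.87 with IL-1β, DUSP1 is lowest in the 3 PBSL libraries, and for most genes PBSL library 2 (square) lies above PBSL library 1 (circle).

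These genes were proposed with their values in all 9 libraries known. Their levels and log2 differences are therefore given as description, without p-values. Each log2 difference is between group means after adding 1 to every value, which understates the change of low genes. It comes from 1 limma model of all 11924 tested genes and carries that model's standard error (SE). The model gives each gene 1 spread for all groups, although the groups could differ. For DUSP4 the SD was 0.0104 with IL-1β and 0.652 with PBSL. With only the 2 groups compared in the model, the SE of DUSP4 for IL-1β against untreated was 0.0735 in place of 0.111.

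DUSP1 encodes a nuclear phosphatase that dephosphorylates p38 and JNK as well as ERK, and it is a classical immediate early gene (hg38 chr5:172768090-172771195, minus strand). It was lower in IL-1β libraries than in untreated ones and lower again with PBSL. The untreated libraries gave 37.2, 37.6 and 33.6, the IL-1β libraries 29.7, 29.3 and 27.2, and the PBSL libraries 20.7, 15.8 and 15. No library of any group overlapped with another group. The log2 difference was -0.32 (SE 0.0994) for IL-1β against untreated, -0.72 (SE 0.0994) for PBSL against IL-1β and -1.04 (SE 0.0994) for PBSL against untreated. Without PBSL 1, the highest of its group, the second of these was -0.86.

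The DUSP1 promoter is shown because it was the only one of the searched members' promoters with a full cAMP response element (CRE), the site of CREB and ATF factors. These are the 250 bases before the transcription start, from RefSeq on GRCh38.p14 (chr5:172771196-172771445, minus strand), with the CRE in capitals, its first base 125 bases before the start.
DUSP1: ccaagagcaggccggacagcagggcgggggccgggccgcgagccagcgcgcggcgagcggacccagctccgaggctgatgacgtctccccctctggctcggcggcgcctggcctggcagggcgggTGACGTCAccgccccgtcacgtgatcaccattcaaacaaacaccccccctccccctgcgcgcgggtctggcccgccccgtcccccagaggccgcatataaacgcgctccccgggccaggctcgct
The motif TGACGTCA, read on both strands, is present in 1.65% of 35116 annotated promoters of that length.

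DUSP10, a phosphatase for p38 and JNK that spares ERK, was nearly level between the first 2 groups (chr1:221701424-221742176, minus strand). Its untreated values were 24.7, 24 and 22.3, and its IL-1β values 21.5, 22.3 and 22.6. The PBSL libraries stood at 23.4, 30.2 and 28.1, all above the IL-1β libraries, although PBSL 1 exceeded the highest of them by little and lay within the untreated range. PBSL and IL-1β differed by 0.28 (SE 0.0817) on the log2 scale, and IL-1β and untreated by -0.092 (SE 0.0817). DUSP1 and DUSP10, which share the stress kinases as substrates, thus lay on opposite sides of IL-1β alone in the PBSL libraries.

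DUSP5, a nuclear phosphatase specific for ERK, was lower in both groups given IL-1β (chr10:110497838-110511544, plus strand). It stood at 11.7, 11.9 and 11.7 in untreated libraries and at 7.47, 7.81 and 7.49 with IL-1β. With PBSL it was 7.47, 9.15 and 8.04, so these libraries overlapped with IL-1β alone and stayed below every untreated library. The log2 difference was -0.57 (SE 0.0704) for IL-1β against untreated and 0.098 (SE 0.0704) for PBSL against IL-1β. The latter was 0.027 without PBSL 2 and 0.16 without PBSL 1.

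DUSP4, a nuclear phosphatase for ERK, JNK and p38 encoded on chromosome 8, was low and had an almost constant value with IL-1β. Its untreated libraries read 2.34, 2.33 and 2.69. The IL-1β libraries read 1.83, 1.84 and 1.85, below every untreated library, and the PBSL libraries 2.17, 3.47 and 2.73, above every IL-1β library. Log2 differences were -0.28 (SE 0.111) for IL-1β against untreated and 0.40 (SE 0.111) for PBSL against IL-1β. Between PBSL and untreated the libraries overlapped (0.12, SE 0.111).

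DUSP6, the cytoplasmic ERK phosphatase and a common marker of ERK activity, went the other way with IL-1β (chr12:89347232-89353271, minus strand). The untreated libraries gave 2.85, 2.66 and 3.6 and the IL-1β libraries 3.83, 4.28 and 3.91, with no overlap. It was the only one of the 10 whose IL-1β libraries all lay above the untreated ones, with a log2 difference of 0.32 (SE 0.127). PBSL libraries stood at 4.01, 5.92 and 3.97, within the IL-1β range except for PBSL 2. The difference between PBSL and IL-1β, 0.15 (SE 0.127), was -0.0037 without PBSL 2.

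SPRY2 encodes the more abundant of the Sproutys described here, a membrane-associated inhibitor of signalling from growth factor receptors to Ras and Raf (chr13:80335976-80340951, minus strand). Its untreated values of 12.2, 11.2 and 13.1 were all above its IL-1β values of 9.12, 9.33 and 9.25. The PBSL libraries, at 10.6, 15 and 13.2, were all above IL-1β alone and overlapped with the untreated ones. Log2 differences were -0.36 (SE 0.0999) for IL-1β against untreated, 0.43 (SE 0.0999) for PBSL against IL-1β and 0.076 (SE 0.0999) for PBSL against untreated. The second was 0.33 without PBSL 2 and 0.56 without PBSL 1.

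SPRY4, a Sprouty with the same role, was near the detection range (chr5:142310427-142326455, minus strand). It had values of 1.04, 0.896 and 1.12 in untreated libraries, 0.626, 0.527 and 0.5 with IL-1β and 0.493, 0.764 and 0.498 with PBSL. Both IL-1β groups lay below the untreated group and overlapped with each other. In a fit with no filter on low values, the log2 difference was -0.38 (SE 0.0752) for IL-1β against untreated and 0.028 (SE 0.0752) for PBSL against IL-1β. Both SPRY2 and SPRY4 were thus lower with IL-1β than in untreated cells, and both were highest of the PBSL libraries in PBSL 2. Only SPRY2 was above IL-1β alone in every PBSL library. SPRY4 was not tested, and adding 1 shrinks its log2 differences, so the sizes for the 2 genes are not compared.

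ETV1 showed the largest log2 difference of the 10 genes, between IL-1β and untreated libraries (chr7:13891228-13991425, minus strand). It stood at 8.01, 8.11 and 11.03 in untreated cells and at 1.98, 1.89 and 1.75 with IL-1β, a mean of 0.207 times the untreated one. PBSL libraries read 1.91, 3.1 and 2.5 and overlapped with IL-1β alone. The log2 difference was -1.79 (SE 0.133) for IL-1β against untreated, 0.27 (SE 0.133) for PBSL against IL-1β and -1.52 (SE 0.133) for PBSL against untreated. The second was 0.15 without PBSL 2 and 0.40 without PBSL 1.

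An ETV1 promoter is shown because it was the only one searched that held the octamer of CIC, a repressor of the PEA3 genes that ERK signalling removes. RefSeq gives ETV1 6 starts, and these are the 250 bases before the most upstream one (GRCh38.p14 chr7:13991426-13991675, minus strand), with the octamer in capitals.
ETV1: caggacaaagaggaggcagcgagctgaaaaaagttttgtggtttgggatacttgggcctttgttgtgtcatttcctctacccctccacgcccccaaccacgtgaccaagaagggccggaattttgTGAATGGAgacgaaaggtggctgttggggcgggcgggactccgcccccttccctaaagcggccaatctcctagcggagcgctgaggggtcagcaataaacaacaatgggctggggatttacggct
The searched form, TGAATGNA on either strand, is found in 3.25% of all 35116 promoters. Promoters of 6 of the 10 genes were in the RefSeq table, 14 in all, and DUSP4, DUSP5, ETV4 and ETV5 had no entry. None of the 14 held the AP-1 motif TGANTCA (6.57% of all promoters), the ETS motif CCGGAAGT (3.42%), a κB site (5.21%) or a CArG box of serum response factor (1.16%). The CRE and the CIC octamer do not overlap with each other, and a match or its absence in these windows says nothing of binding.

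ETV5 was lower with IL-1β and intermediate with PBSL (chr3:186046308-186110318, minus strand). Untreated libraries gave 7.23, 7.38 and 7.46, and IL-1β libraries 4.57, 5.15 and 4.28. The PBSL libraries spread from 4.98 in PBSL 1, inside the IL-1β range, through 6.16 in PBSL 3 to 7.84 in PBSL 2, above every untreated library. Log2 differences were -0.56 (SE 0.118) for IL-1β against untreated and 0.36 (SE 0.118) for PBSL against IL-1β. The latter was 0.21 without PBSL 2 and 0.49 without PBSL 1.

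ETV4 was the least abundant PEA3 gene (chr17:43527844-43579620, minus strand). Its values were 0.732, 0.643 and 0.619 in untreated libraries and 0.582, 0.695 and 0.469 with IL-1β, which overlapped. With PBSL it read 0.64, 1.88 and 1.1, so that only PBSL 2 and PBSL 3 lay above all other libraries. In the fit with no filter the difference between PBSL and IL-1β was 0.44 (SE 0.169).

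Against untreated cells, IL-1β libraries were wholly lower for 7 of the 10 genes and wholly higher for DUSP6 alone. Over all tested genes the corresponding shares were 27.1% and 25.7%, or 52.8% in either direction. The 7 include SPRY4, which was not tested. Of the 8 genes tested, DUSP1, DUSP5, SPRY2, ETV1 and ETV5 were called in limma at an adjusted p under 0.05, all lower, where 16% of all tested genes were called lower and 16.2% higher. The calls of DUSP5, ETV1 and ETV5 were made without any 1 of the 9 libraries. That of DUSP1 was lost without untreated 1, untreated 2 or any IL-1β library and with no filter on low values, and that of SPRY2 without untreated 3 or IL-1β 1. Left out 1 at a time, the libraries gave between 3 and 7 called members. The 3 came without IL-1β 1, and the 7, which included DUSP4 and DUSP6, without PBSL 2. DUSP4 and DUSP6 were also called with only the 2 groups compared in the model and with array weights. Because the genes were chosen with these values in view, their calls in all 3 comparisons are description and no test. Nothing is read from the counts or from which calls held.

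With PBSL against IL-1β alone, DUSP4, DUSP10, SPRY2 and ETV5 were called higher and DUSP1 lower. Over all tested genes 11.5% were called higher and 11% lower. Libraries did not overlap for DUSP4, DUSP10 and SPRY2, which were higher, and for DUSP1, beside 21.7% and 20.1% of all tested genes (41.8% in either direction). The calls of SPRY2 and DUSP1 were made without any 1 library. Those of DUSP4 and DUSP10 were lost without PBSL 2, PBSL 3 or any IL-1β library, and with no filter on low values. That of DUSP10 was also lost with only the 2 groups compared in the model. ETV5 was just past the threshold and lost its call without any 1 library other than PBSL 1. Its call was also lost with no filter, no variance trend, only the 2 groups compared in the model, or either rescaling of libraries by median ratios. The count of 5 called members became 2 without PBSL 2, PBSL 3 or any 1 IL-1β library, and 6 without PBSL 1, when ETV1 was also called.

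PBSL against untreated cells, a comparison that shares libraries with the other 2, left DUSP1, DUSP5 and ETV1 called lower and DUSP6 called higher. The background was 19.3% of tested genes called lower and 22.3% called higher. PBSL libraries lay wholly below the untreated ones for 4 of the 10 genes and wholly above for DUSP6 (22.1% and 26% of all tested genes, 48.2% in either direction). The 4 include SPRY4, which was not tested. DUSP6 had values of 4.01, 5.92 and 3.97 against 2.85, 2.66 and 3.6 (log2 difference 0.47, SE 0.127). Its call was lost without untreated 2, and the difference was 0.31 without PBSL 2. SPRY2, DUSP4, DUSP10 and ETV5 were not called, with log2 differences of 0.076, 0.12, 0.19 and -0.21. DUSP10 was called without PBSL 1 (0.29) and was at 0.11 without PBSL 2. ETV5 was called without PBSL 2 (-0.35) and was at -0.071 without PBSL 1. DUSP4 was at 0.24 and SPRY2 at 0.20 without PBSL 1, and at -0.0055 and -0.028 without PBSL 2.

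The 3 PBSL libraries took the same order for many of these genes. PBSL 2 was the highest of the 3 for 9 of the 10 genes, DUSP1 being the exception, whereas it was the highest for 31.1% of all tested genes. It was also the highest of all 9 libraries for DUSP4, DUSP6, DUSP10, SPRY2, ETV4 and ETV5, against 17.5% of all tested genes. PBSL 1 was the lowest of the 3 for 8 of the 10 genes (35.6% of tested genes) and the nearest to the IL-1β mean for 9 of the 10 (58.1%). The 10 genes include SPRY4 and ETV4, which were not tested, while the shares cover tested genes only. Relative to that mean, SPRY2 stood at 0.19, 0.64 and 0.48 on the log2 scale in PBSL 1, 2 and 3. ETV5 stood at 0.081, 0.64 and 0.34 and ETV4 at 0.054, 0.87 and 0.41. For DUSP1 the order was different, with -0.45, -0.82 and -0.89. These 3 libraries carry the same label, and what set them apart was not tested.

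**Figure D2:**
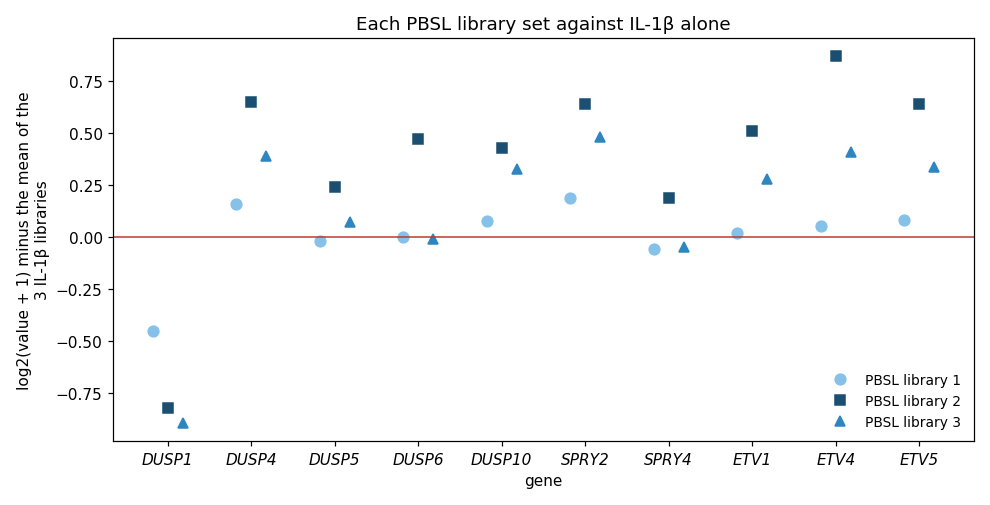
Difference of log2(value + 1) in each PBSL library from the mean of the 3 IL-1β libraries (vertical axis, log2 units; red line at 0) for each gene on the horizontal axis; each symbol is 1 library. PBSL library 2 is the highest symbol for every gene except DUSP1, for which all 3 symbols lie below 0, from -0.45 to -0.89.

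Over the 9 libraries the genes fell into patterns that differed between some close relatives and were shared by others. DUSP4 and SPRY2 varied together (Pearson r = 0.98 of log2 values), as did DUSP5 and ETV1 (0.98), ETV1 and SPRY4 (0.95), DUSP5 and SPRY4 (0.94) and DUSP10 and ETV4 (0.92). Within the PEA3 group r was 0.80 for ETV1 and ETV5, 0.55 for ETV4 and ETV5 and -0.06 for ETV1 and ETV4. SPRY2 and SPRY4 had r = 0.49, and DUSP5 and DUSP6 had -0.56. ETV4 and SPRY4 were below the test filter. DUSP1 ran against DUSP6 (-0.76), DUSP10 (-0.72) and ETV4 (-0.71). All such coefficients rest on 9 libraries in 3 groups of unequal level, and no p is given. They describe the group means together with the order of the 3 PBSL libraries given above.

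**Figure D3:**
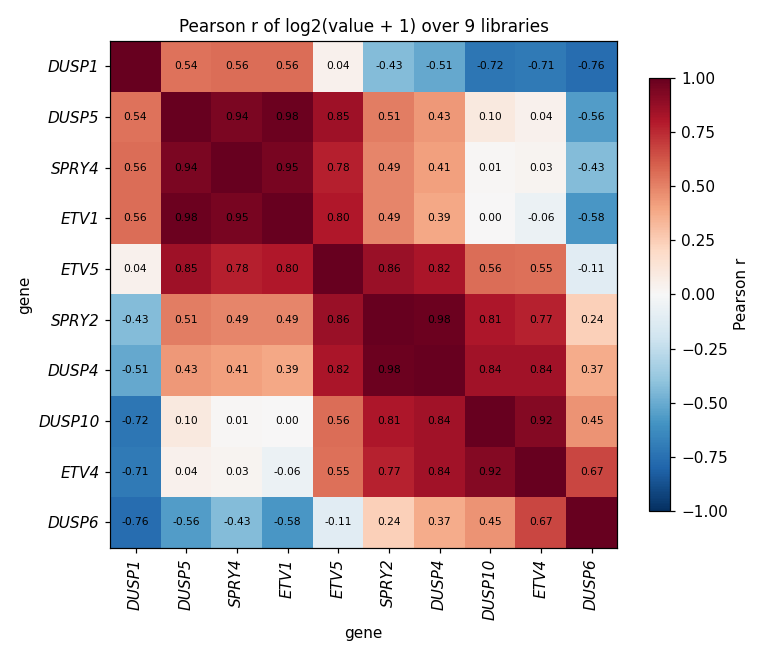
Pearson r of log2(value + 1) over the 9 libraries for each pair of the 10 genes (both axes list the genes; colour runs from -1 in blue to 1 in red). DUSP5, SPRY4 and ETV1 form a block with r of 0.94 to 0.98, and DUSP1 is blue against DUSP6, DUSP10 and ETV4.

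Among all other tested genes, the pattern most like that of ETV5 belonged to CCND1, the gene of cyclin D1, which drives entry into S phase and is itself a target of ERK signalling (r = 0.982 over 9 libraries). CCND1 had means of 70.0, 35.6 and 56.8 in untreated, IL-1β and PBSL libraries. CYSTM1 (0.975) and SFRP1, a secreted Wnt antagonist (0.965), followed. The pattern of DUSP1 was most like that of CALD1 (0.991), CNN1 (0.989) and COL8A1 (0.988). CALD1 and CNN1 encode caldesmon and calponin, which bind actin in contractile cells, and CNN1 had means of 46.5, 30.1 and 12.4. Most like DUSP5 were LRP3 (0.987), AKAP12 (0.986) and MORC4 (0.984). For SPRY4 they included PRR7 (0.981) and DEAF1 (0.980), and for DUSP6 ESRRA (0.978), B3GALT6 (0.978) and ZNF524 (0.967).

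Other genes of the ERK, p38 and JNK pathways were counted from 8 lists by role. These lists were chosen with earlier results of these data known, so their called shares stand beside the background as description only. Of 129 genes listed, 127 were in the table and 103 were tested in the same limma model. With IL-1β against untreated cells, 24 rose, 27 fell and 52 were not called. The called share was 49.5%, beside 32.1% of all tested genes, and the median log2 difference was 0.015, beside -0.0049 over all tested genes. Adjusted p-values below are Benjamini-Hochberg values over all 11924 genes.

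Receptor tyrosine kinases, which start the cascade, were lower after IL-1β: 7 of 8 tested fell and none rose, with a median log2 difference of -0.35. PDGFRA, a receptor for platelet-derived growth factor, fell from 10.5 ± 1.07 to 5.86 ± 0.675 (log2 difference -0.74, adjusted p = 9.58e-05). FGFR2, a fibroblast growth factor receptor, fell from 5.48 ± 0.16 to 3.3 ± 0.107 (adjusted p = 0.000274). PDGFRB fell from 25.4 ± 1.55 to 19.3 ± 0.414 (adjusted p = 0.0128), a call lost without untreated 3 (adjusted p = 0.0526). Among the ligands 3 rose and 3 fell of 11. FGF2 rose from 11.8 ± 1.14 to 22.7 ± 0.899 (adjusted p = 1.59e-06) and HBEGF, a ligand of the EGF receptor, from 8.09 ± 1.11 to 12.8 ± 0.0668 (adjusted p = 0.000171), while PDGFD fell from 7.16 ± 0.615 to 3.56 ± 0.315 (adjusted p = 5.35e-05).

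Of 25 genes of the cascade itself, 3 rose, 3 fell and 19 were not called. MAP3K8, the kinase that links IL-1 receptor signalling to MEK and ERK, passed the filter through its levels with IL-1β, since only 1 untreated library reached 1. It rose from 1.16 ± 0.529 to 4.39 ± 0.884 (log2 difference 1.33, adjusted p = 7.54e-05). MAP2K1, which encodes the ERK kinase MEK1, rose from 28.5 ± 1.13 to 38.4 ± 0.28 (adjusted p = 0.000133). The small GTPase gene RRAS rose from 87.7 ± 2.83 to 114 ± 2.08 (adjusted p = 0.00376), and RPS6KA2, an ERK-activated kinase, fell from 5.03 ± 0.229 to 3.82 ± 0.097 (adjusted p = 0.00803). MAPK3, the gene of ERK1, had 38.8 ± 1.33 and 36.9 ± 0.444 and was not called (adjusted p = 0.38). Of 14 p38 and JNK kinases 3 rose and 3 fell. MAPKAPK3, a kinase downstream of p38, fell from 73.2 ± 3.31 to 42.0 ± 0.818 (adjusted p = 2.25e-07). MAP2K3, which activates p38, fell from 40.1 ± 2.97 to 34.4 ± 1.13 (adjusted p = 0.0248), a call lost without untreated 2, untreated 3, IL-1β 1 or IL-1β 2, up to 0.102.

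Other feedback inhibitors went in both directions, with 3 of 10 up and 5 down. LRIG1, which promotes the degradation of EGF receptors, rose from 6.52 ± 0.213 to 23.1 ± 0.237 (log2 difference 1.68, adjusted p = 2.17e-09), and ERRFI1, an inhibitor of the EGF receptor kinase, from 51.6 ± 1.48 to 82.1 ± 2.59 (adjusted p = 5.77e-05). The Sprouty relatives SPRED1 and SPRED2 fell, from 6.68 ± 0.456 to 4.88 ± 0.123 (adjusted p = 0.0101) and from 9.45 ± 0.643 to 7.38 ± 0.369 (adjusted p = 0.00687). SPRY1 did not exceed 0.05 in any library. Of 4 other MAP kinase phosphatases tested, 2 rose and 1 fell. DUSP7, an ERK phosphatase close to DUSP6, fell from 18.8 ± 1.03 to 15.4 ± 0.292 (adjusted p = 0.0138), a call lost without untreated 1 or IL-1β 3, up to 0.0614. DUSP16, a JNK phosphatase, had 6.32 ± 0.695 and 7.9 ± 0.694 (adjusted p = 0.0594), and was called without untreated 3, PBSL 1 or PBSL 2. DUSP2 stayed below 1, with a highest value of 0.778.

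Among 17 other ETS factors and ETV regulators, 5 rose and 1 fell, so that ETV1 and ETV5 had lower and several relatives higher values after IL-1β. ETS1 rose from 76.7 ± 1.41 to 122 ± 0.827 (adjusted p = 3.34e-06), ETS2 from 11.2 ± 0.984 to 14.7 ± 0.457 (adjusted p = 0.00124) and ERF, an ETS repressor that ERK inactivates, from 64.4 ± 3.41 to 77.3 ± 0.893 (adjusted p = 0.00371). CIC stood at 33.6 ± 1.88 and 30.8 ± 1.07 and was not called (adjusted p = 0.14).

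Of 14 other ERK-responsive transcripts 5 rose and 4 fell with IL-1β, a called share of 64.3% with a median log2 difference of 0.20. IER3, which is also a target of NF-κB and passed the filter through its levels with IL-1β, rose from 0.956 ± 0.261 to 37.7 ± 0.598 (log2 difference 4.32, adjusted p = 7.86e-12), and MAFF, a small MAF factor, from 2.9 ± 0.328 to 11.3 ± 0.0308 (adjusted p = 6.12e-09). CCND1 fell from 70.0 ± 0.589 to 35.6 ± 1.21 (adjusted p = 0.000313). The immediate early gene EGR1 fell from 5.7 ± 0.674 to 2.44 ± 0.077 (adjusted p = 0.000321), and the AP-1 subunit gene FOSL1 from 92.6 ± 4.12 to 74.2 ± 2.02 (adjusted p = 0.00753). PHLDA1 had 78.6 ± 6.43 and 87.7 ± 1.19 and was not called (adjusted p = 0.117), but was called without untreated 3. FOS was below the filter, with a mean of 1.48 ± 0.801 untreated and 0.753 ± 0.214 with IL-1β.

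With PBSL against IL-1β alone, 8 of the 103 pathway genes rose and 11 fell, a called share of 18.4% beside 22.5% of all tested genes. None of the 4 other phosphatases, 10 other feedback inhibitors and 14 p38 and JNK kinases was called in this comparison by limma, the only tool run. At an unadjusted p under 0.05 there were 1, 2 and 0 in these lists. SPRED1 and SPRED2, for example, were at 5.36 ± 0.909 and 8.13 ± 0.699 with PBSL, with adjusted p = 0.48 and 0.266, and SPRED1 was called without PBSL 1. DUSP16 had an adjusted p of 0.628. The count of 19 called genes was 7 without IL-1β 2, 9 without IL-1β 1 or IL-1β 3, 11 without PBSL 2, 12 without PBSL 3 and 32 without PBSL 1.

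ERK-responsive transcripts with PBSL included 3 that rose and 1 that fell among 14. CCND1 rose from 35.6 ± 1.21 to 56.8 ± 15.6 (log2 difference 0.62, adjusted p = 0.0118), FOSL1 from 74.2 ± 2.02 to 103 ± 12.1 (0.46, adjusted p = 0.00389) and PHLDA1 from 87.7 ± 1.19 to 111 ± 9.97 (0.33, adjusted p = 0.00918). EGR1 fell further, from 2.44 ± 0.077 to 1.19 ± 0.55 (-0.68, adjusted p = 0.00825). The mean of EGR1, like that of DUSP1, was thus lowest with PBSL, whereas those of FOSL1 and PHLDA1 were highest with PBSL. Against untreated cells PHLDA1 was called (0.49, adjusted p = 0.000232). FOSL1 was not (0.14, adjusted p = 0.147), and its libraries overlapped with the untreated ones, but it was called without PBSL 1. Between PBSL and IL-1β, the calls of CCND1, FOSL1, PHLDA1 and EGR1 were made without any 1 library. IER3 was not called (34.4 ± 1.24, adjusted p = 0.309).

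Of 8 receptor tyrosine kinases 3 fell and of 11 ligands 5 fell with PBSL, and none rose. PDGFRB fell from 19.3 ± 0.414 to 12.4 ± 2.39 (log2 difference -0.61, adjusted p = 0.00387), a call made without any 1 library. FGF1 fell from 8.2 ± 0.596 to 6.22 ± 0.722 (adjusted p = 0.0219) and PDGFC from 39.6 ± 1.2 to 32.9 ± 3 (adjusted p = 0.0149). In the cascade SHC1, an adaptor, fell from 129.8 ± 1.03 to 113 ± 5.82 (adjusted p = 0.0175) and RRAS from 114 ± 2.08 to 92.4 ± 12.9 (adjusted p = 0.0196). PTPN11, the phosphatase SHP2, which supports signalling from receptors to Ras, rose from 36.6 ± 0.658 to 43.2 ± 4.03 (adjusted p = 0.0288). Of 17 ETS factors and ETV regulators 3 rose, among them ELK1, an ERK substrate that activates immediate early genes, by 0.29 on the log2 scale (adjusted p = 0.0154), and ELK3 from 22.9 ± 0.448 to 27.1 ± 2.22 (adjusted p = 0.0293). The calls of SHC1 and RRAS were lost without any 1 IL-1β library (up to 0.0699 and 0.0697), and that of PDGFC without IL-1β 2 or IL-1β 3 (up to 0.0638). FGF1 was not called without PBSL 2, PBSL 3, IL-1β 1 or IL-1β 2 (up to 0.085), nor ELK1 without PBSL 2, IL-1β 2 or IL-1β 3 (up to 0.0671). PTPN11 and ELK3 were not called without PBSL 2, PBSL 3 or any 1 IL-1β library (up to 0.101 and 0.099).

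**Figure D4:**
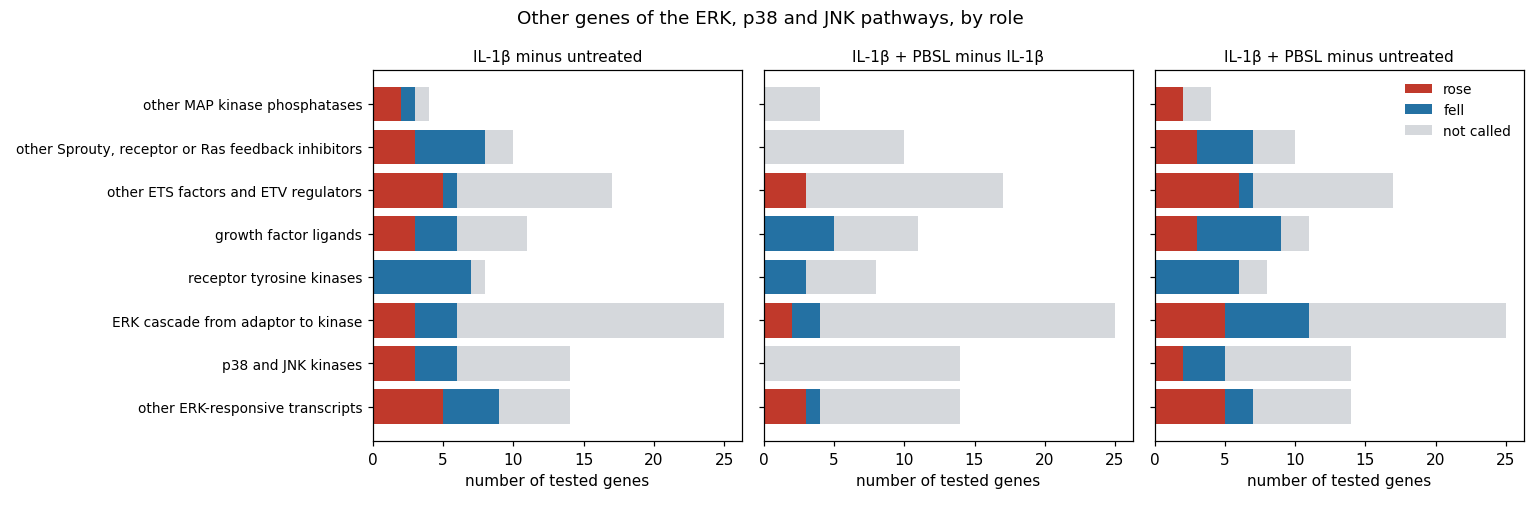
Number of tested genes (horizontal axis) that rose, fell or were not called by limma at an adjusted p under 0.05 in each of 8 role lists, which hold none of the 10 genes above; 1 panel per comparison. Receptor tyrosine kinases show 7 falls of 8 with IL-1β, and the other phosphatases, other feedback inhibitors and the p38 and JNK kinases show no calls between PBSL and IL-1β.

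Between PBSL and untreated cells 26 pathway genes rose and 28 fell, or 52.4% of the 103, beside 41.6% of all tested genes. Receptor tyrosine kinases had 6 falls of 8, with PDGFRB at -0.99 (adjusted p = 1.31e-05), PDGFRA at -0.91 (adjusted p = 1.8e-05) and FGFR2 at -0.88 (adjusted p = 1.07e-05) on the log2 scale. FGF2 at 0.95 and LRIG1 at 1.53 were higher than in untreated cells (adjusted p = 9.36e-07 and 5.89e-09). EGR1 was lower by a log2 difference of -1.64 (adjusted p = 4.17e-06). CCND1, at 56.8 ± 15.6 against 70.0 ± 0.589, was not called (adjusted p = 0.083), but was called without PBSL 2. MAPK3 fell by 0.16 on the log2 scale (adjusted p = 0.0358), a call lost without untreated 2, untreated 3, PBSL 3 or any 1 IL-1β library (up to 0.129), with array weights, with no variance trend and with only the groups compared in the model.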

How the data were processed

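RNA of 9 SW1353 libraries was sequenced from directional mRNA libraries, per the labels' protocols. Trim Galore, STAR, HTSeq and hg38 are named in the submitters' processing notes, without versions. The authors deposited 1 table of normalized signal values; the sources used here do not say whether they are FPKM or TPM, or how reads with several matches were counted. As they are not counts, no count model was run. Columns were matched to samples by title.

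The 11924 genes that reached 1 in 3 or more libraries were tested. After adding 1, log2 values were fitted with limma 3.58.1 (R 4.3.3), with a variance trend, 1 model of all 9 libraries and a mean per group. Calls are 2-sided at a Benjamini-Hochberg adjusted p under 0.05. An exact permutation of 3 against 3 libraries cannot pass that threshold. The fit was tested on simulated data with 200 of 11924 genes changed. Across the 3 comparisons it recovered 78.5% to 81.5% of them at a log2 change of 0.5 and 97.5% to 99% at 1. False calls made up 3.43% to 7.39% of all calls, so at times more than the nominal 0.05. The simulated noise was independent between libraries, with 1 spread per gene in every group. In the deposited data more genes were called and the spread of some genes differed between groups, so these rates need not hold there.

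The members and the pathway lists were chosen with earlier results of these data known. Pathway genes were named by rule: up to 3 called genes per list and comparison with the largest log2 difference and a group mean that reached 5 in the higher group, with 14 genes always included. Some genes that the rules named are not reported here. Between PBSL and untreated cells only some of the genes so named are given. Likeness was the highest Pearson r over the 9 libraries. Gene positions are from GENCODE 29 and promoters from RefSeq (GRCh38.p14). Replicate numbers in the labels were not used as a block, since same-numbered libraries did not deviate together. Alternatives were other pseudocounts, filters, scalings, weights and models, and leaving out each library. Tables used Python 3.11.15 with pandas 2.3.3 and numpy 2.4.6, and figures matplotlib 3.10.9.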

Additional observations from a re-analysis of the deposited data

How the results depend on the processing

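Between PBSL and IL-1β alone, the count of called genes among all 11924 tested (2684) ran from 1304 to 3910 when each library was left out in turn. The count of called members (5) ran from 2 to 6 and that of other pathway genes (19) from 7 to 32. With no filter on low values 2 members were called, and 3 with only the groups compared in the model. With PBSL 3 as the only PBSL library, an alternative chosen after seeing the data in which that library is assumed to vary like the others, 33 pathway genes were called. Between IL-1β and untreated libraries, the member count (5) ran from 3 to 7. With only the 2 groups compared in the model, 4929 genes were called in that comparison, beside 3831 in the main fit. Between PBSL and untreated cells the same change of model gave 4032 called genes, beside 4965. Of the single-gene values under the alternatives, 1850 kept their direction and call, 94 lost and 34 gained a call, and 12 turned direction, none of them called. Between PBSL and IL-1β, DUSP6 was at -0.0037 without PBSL 2 (up to 0.23 without another library) and -0.0099 with PBSL 3 alone. MAP3K8 ran from -0.19 to 0.047 (without IL-1β 2; 0.044 without PBSL 2) and was 0.083 with PBSL 3 alone. CIC ran from -0.033 to 0.035 (without PBSL 3; 0.013 and 0.0057 without IL-1β 2 and 3) and was 0.0018 with array weights, and DUSP16 ran from -0.19 to 0.01. Between PBSL and untreated cells DUSP4 ran from -0.0055 to 0.24 and SPRY2 from -0.028 to 0.20, both lowest without PBSL 2. Where no value shows it, the cause was not tested. Same-numbered libraries had correlations of deviations between -0.23 and 0.07, and 2 of 9 libraries correlated best with their own number. With the replicate number as a block, 3479, 2131 and 4535 genes were called for IL-1β against untreated, PBSL against IL-1β and PBSL against untreated, and 5, 5 and 4 members. Of the genes named here only MAPK3 changed its call under the block, which was lost between PBSL and untreated cells at the same log2 difference of -0.16. Count-based alternatives were not run, as the values are not counts, and absolute depth, which limits SPRY4 and ETV4 most, is unknown.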
